A study of Rattus norvegicus with 20 samples.

Results

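The RNA levels of the cytosolic ribosomal proteins were compared between iliac arteries of old and young rats, before and after balloon injury. Members were the genes whose platform symbol begins with Rpl or Rps and a number, together with Rplp0, Rplp1, Rplp2 and Rpsa; 7 Rps6 kinases and 21 symbols ending in l1 were left out. This gave 110 of the 16421 gene symbols on the array, carried by 151 of 41010 probes. Among them were 44 proteins of the large (60S) subunit and 25 of the small (40S) subunit. The other members were 21 names with a pseudogene suffix and 20 names of gene copies, such as Rpl3l.

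RNA came from iliac arteries of Fisher rats aged 22 months (old) and 3 months (young). Each of 20 arrays held 2 samples, one in Cy5 and one in Cy3. Old and young arteries were paired on 3 arrays without injury (healthy), 3 arrays at 30 min, 4 arrays at 3 days and 4 arrays at 7 days after injury. On 3 further arrays at 30 min both samples were old, and on 3 both were young, and the labels give both samples of such an array the same injury time. The study's legends, however, describe these comparisons as injured against control arteries, so the samples of such an array may differ in injury. An ageing-research institute supplied the old rats and a commercial breeder the young ones, so age and supplier cannot be told apart. The labels do not tie samples to animals, so p-values measure the spread between these arrays, which may in part be technical. In whole arteries, fewer cells of a type and less RNA per cell cannot be told apart, and a ratio holds no level, so the presence of artery markers could not be checked.

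Cytosolic ribosomes translate nearly all cellular mRNA, and each is built from a small subunit, which decodes the message, and a large subunit, which joins the amino acids. The ribosomal protein genes are transcribed in every cell type and make up a large share of the mRNA of growing cells. Their mRNAs begin with a run of pyrimidines (C and T in the DNA) directly at the start of transcription, the 5′ terminal oligopyrimidine or TOP motif. Through this motif the kinase mTOR couples their translation to nutrients and growth factors, and mRNAs of translation elongation factors carry it too. In arteries, proliferating and matrix-producing smooth muscle cells depend on this capacity after injury.

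The start of the transcript is shown for 7 of the members on which the results below turn. It holds a feature that is common in the family and was not used to choose it. Each window runs from 10 bases before the annotated start, so that the start itself is the 11th letter, and comes from RefSeq on build GRCr8. Capitals mark the longest run of C and T that reaches within 2 bases of the start.
Rpl3, chr7:113507971-113508000, minus strand: gcctgctcgaTCTCTatcggcggcgtgtgg
Rpl4, chr8:73566467-73566496, plus strand: TCTTCCTTTTCCTgtgggagcagccgggta
Rps15, chr7:10068096-10068125, minus strand: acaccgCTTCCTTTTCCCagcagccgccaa
Rps27, chr2:177964587-177964616, minus strand: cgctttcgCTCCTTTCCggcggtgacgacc
Rps18, chr20:4933735-4933764, plus strand: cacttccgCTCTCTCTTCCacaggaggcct
Rps26, chr7:1643385-1643414, minus strand: ccgccgggTCCTCTTTCgagtcttggctcc
Rpl34, chr2:221962264-221962293, minus strand: TCCTTTTCCTCTTCCggggacggtgcttag
A window was found for 78 of the 110 members, 59 of them 60S or 40S proteins. A run of 5 or more such letters was present in 42 of the 59 (71.2%), in 3 of 19 pseudogene and copy names (15.8%) and in 20.3% of 27457 RefSeq windows of the same length. The letters CTTTC, on either strand, were found in 25 of the 59 windows (42.4%) against 7.09% of all windows. Such a match describes the letters only. All 7 genes shown have a run of 5 or more, while Rpl36, Rpl5, Rps6 and Rplp2, which are also named below, have runs of only 2.

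All values are log2 ratios of the samples of an array. The deposited values do not state which dye is on top. Arrays are called old-Cy5 or old-Cy3 by the dye of the old sample. On the old-Cy3 arrays the sign was turned, so that a value above 0 means more RNA in the old artery if the deposited ratio is Cy5 over Cy3. The directions in the study's gene list for 3 days follow this reading (807 of 807 entries) and not the deposited sign (295 of 807). The authors made that list from these same arrays, so it shows the sign they used and is no independent check. The study's list for old against young arteries at 30 min follows both readings alike. Its 30 min lists within an age follow the deposited sign (1751 of 1751 entries in young and 987 of 987 in old arteries). Those arrays are turned in neither reading, so these lists cannot tell the readings apart. The values themselves do not settle the reading, as shown under 30 min and under 3 and 7 days, and the values as deposited are therefore given too. On the arrays within an age no turn was made and the labels give the sign no meaning. Array medians over all 36037 features tested (genes and probes without a symbol) lay between -0.03 and 0.02. The SD over all features was 0.34 to 0.58 on healthy and 30 min arrays and 0.57 to 0.90 at 3 and 7 days. No filter on low values was applied, so all 110 members entered each test. On each array 5.96% to 11.9% of the members' probes had exactly the same value as some other probe, against 45.1% to 65.2% of all probes.

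No ribosomal protein gene passed an adjusted p of 0.05 (limma) in any of the 4 comparisons of old with young arteries, where 0.00555% (healthy), 0.00832% (30 min), 0.0361% (3 days) and 0.78% (7 days) of all features were called. None was called in the arrays within old (0.00832% of all features) or within young arteries (0.00277%), or in the 3 differences between neighbouring times (0%, 0% and 0.0832%). At an unadjusted p under 0.05, 9 members passed in healthy arteries, 18 at 30 min, 4 at 3 days and 1 at 7 days, against 2.89%, 3.93%, 4.34% and 11.5% of all features. The methods' t-test, a test of the mean of the arrays against 0 for each feature, passed 10, 1, 6 and 1 members at the same unadjusted threshold, against 4.75%, 4.71%, 2.16% and 3.66% of all features, and 0 after Benjamini-Hochberg adjustment. The values below therefore describe these arrays, and their differences lie within the spread that the adjusted test allows.

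In healthy arteries the family lay above 0, by a small and even amount. The median over the 110 genes was 0.27, 0.26 and 0.22 on the 3 arrays, and 85, 86 and 84 genes were above 0. The mean over arrays was above 0 for 101 of 110 genes, against 49.7% of all features, with a median of 0.23. On all 3 arrays 51 members were above 0, against 11.2% of all features, and 0 were below 0, against 13.2%. The 60S and 40S proteins had the same median (0.22 each), with 40 of 44 and 24 of 25 means above 0. All 9 members with an unadjusted p under 0.05 were on the higher side, against 1.57% of all features, and 0 were on the lower side, against 1.33%. They were Rplp0, Rpl3, Rpl4, Rpl5, Rpl7, Rps3, Rpl7-ps3, Rpl23al5 and Rpl35l4. Without replicate 2 the count was 5, with 4 higher and 1 lower, near the 3.69% of all features. Without replicate 1 it was 8 (7 higher and 1 lower, 3.43%), and without replicate 3 it was 11 (10 higher and 1 lower, 3.08%). Read as deposited, the same arrays had family medians of -0.27, 0.26 and -0.22, since replicates 1 and 3 are old-Cy3 arrays. Both dyes gave family medians of one sign only under the turned reading. Gene by gene the arrays were less alike. Across the 69 proteins of both subunits, replicates 1 and 3 correlated at -0.63, although both are old-Cy3. Replicate 2 correlated with them at 0.53 and -0.01.

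**Figure D1:**
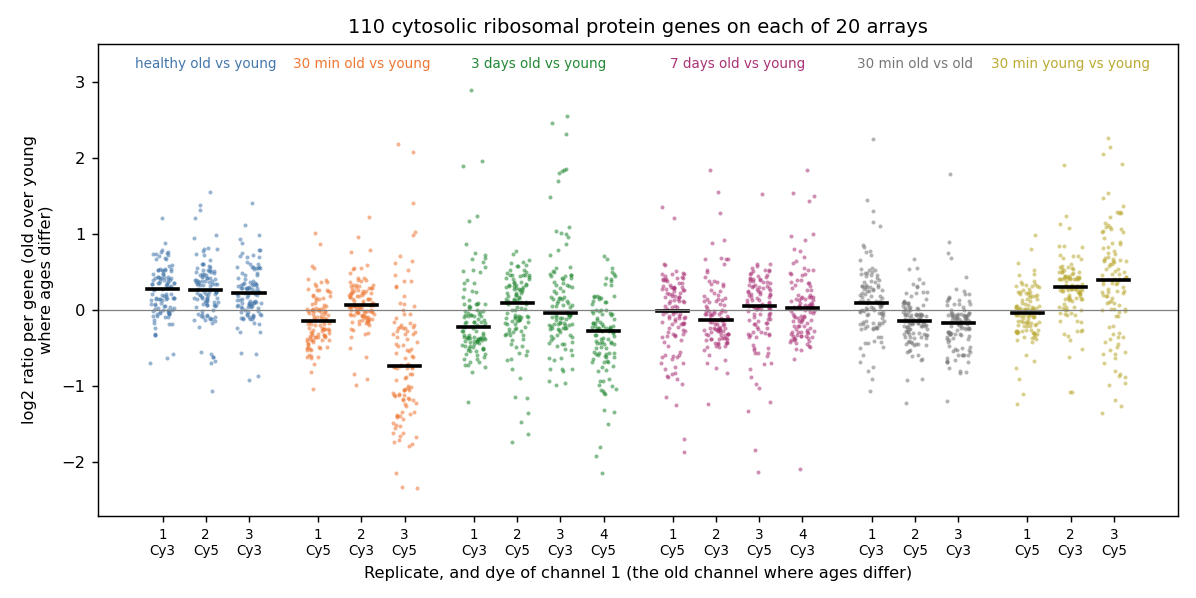
Log2 ratio (vertical axis) of each of the 110 ribosomal protein genes on each of 20 arrays, grouped by comparison, with the replicate and the dye of channel 1 under each column; a bar marks the median over the genes. Healthy arrays have medians of 0.22 to 0.27, while 30 min old vs young replicate 3 has a median of -0.74 and the widest spread.

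The members differed among themselves in how evenly they stood on the healthy arrays. Rplp0, which anchors the stalk that recruits elongation factors, had 0.18, 1.38 and 0.94 on the 3 arrays. Its mean was 0.83 ± 0.60 (SD, n = 3), the highest of the family (fitted 0.81, SE 0.30, limma adjusted p = 0.999997). The acidic stalk proteins that bind to it did not share this: Rplp1 had -0.57, -0.69 and 0.72, and Rplp2 had -0.31, -0.08 and 0.34. Both straddled 0, so the stalk had no common direction. Rpl3, a protein near the peptidyl transferase centre, had 0.18, 1.32 and 0.80. Rpl4, which lines the exit tunnel for the growing protein, had -0.18, 0.99 and 1.41, and was below 0 on replicate 1. Rpl5 and Rpl11 form with the 5S RNA the particle that binds Mdm2 when ribosome assembly fails. Rpl5 had 0.44, 0.95 and 0.49, all above 0, and Rpl11 had 0.28, 0.12 and 0.11, an even but smaller amount. Rpl3l, the copy of Rpl3 made mainly in striated muscle, had 0.53, -1.06 and -0.92 and the lowest mean of the family, -0.48 ± 0.88 (SD, n = 3). Rpl3 and Rpl3l thus stood on opposite sides of 0 on replicates 2 and 3. Markers of skeletal muscle stood beside Rpl3l with a median of -0.41 over 11 genes, of which 1 had a mean above 0; their part in its value was not tested.

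Of the other members in wide use as markers, Rpsa, the 40S protein also described as a laminin receptor, had -0.03, 0.61 and 0.49 in healthy arteries. Rps6, the target of the S6 kinases downstream of mTOR, had -0.33, -0.14 and 0.64. Rpl13a and Rps18, often used as reference genes in PCR, had -0.09, -0.06 and 0.70, and -0.13, -0.08 and 0.61. All 4 genes had their arrays on both sides of 0. A further pair, Rps23 in the decoding centre and Rpl23, showed a like split with larger values, of -0.63, -0.62 and 1.12 for Rps23 and -0.69, -0.55 and 0.98 for Rpl23. Rps2 and Rps21, in contrast, had SDs of only 0.05 between the 3 arrays, with Rps21 at 0.34, 0.24 and 0.28.

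At 30 min after injury most members had means below 0. The array medians were -0.15, 0.06 and -0.74, the mean was above 0 for 21 of 110 genes, against 48% of all features, and the median of the means was -0.25. On every array 16 members were below 0, against 13.3% of all features, and 4 were above 0, against 12.5%. By unadjusted p, 15 members passed on the lower side, against 1.48% of all features, and 3 on the higher side, against 2.45%. The lower ones were 9 proteins of the 60S subunit, with Rpl27, Rpl36 and Rpl35a among them, and 6 of the 40S subunit, with Rps27, Rps14 and Rps15 among them. The higher ones were Rpl3, Rpl4 and Rpl5. The counts by unadjusted p rest on replicate 3. Without it 1 member passed (1.88% of all features did), and without replicate 2 the count was 42 (7.46%). Without replicate 3 and the young vs young array of the same number the count was 0 (1.84%). The 16 of 110 members below 0 on every array lay near the 13.3% of all features, so this count does not set the family apart. On replicates 1 and 2 alone, 20 members were below 0 on both and 13 were above 0 on both. The share of all features was not counted there. Over replicates 1 and 2 the median of the means was -0.02, with 50 of 110 means above 0. Replicate 2, whose median alone was above 0, is the only old-Cy3 array of the 3. Across the 69 proteins of both subunits, replicates 1 and 3 correlated at 0.65. Replicate 2 correlated with them at -0.35 and -0.15. As deposited, all 3 pairs were above 0.

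The 40S protein Rps27 had -0.62, 0.31 and -2.14 on the 3 arrays at 30 min, and the 60S protein Rpl36 had -0.25, -0.01 and -2.34. Rpl36 had the lowest mean of the family, -0.86 ± 1.28 (SD, n = 3; fitted -0.93, SE 0.38, limma adjusted p = 0.999939). In both genes the low mean came from replicate 3. Rps14, a 40S protein lost in a human myelodysplastic syndrome with anaemia, had -0.12, 0.03 and -2.32. Rpl27 had -0.34, -0.01 and -1.55. Against these stood Rpl3 with 0.87, 0.21 and 2.18 and Rpl4 with 1.02, -0.02 and 2.08. Rpl3 had the highest mean of the family, 1.09 ± 1.00 (SD, n = 3), and was above 0 on all 3 arrays. Rpl5 was as well, with 0.37, 0.22 and 1.42. Over the 6 healthy and 30 min arrays, Rpl3 and Rpl5 were the only 60S or 40S proteins above 0 on each; with Rpl12l2 and Rps4x-ps9 they made 4 of 110 members, against 2.96% of all features. Eef1a1, the elongation factor that brings aminoacyl-tRNA to the ribosome and whose mRNA carries a TOP motif, had 0.04, 0.95 and 1.17 on the healthy arrays and 1.17, -0.05 and 1.54 at 30 min. Rpl4 and Eef1a1 were near 0 on the same pair of arrays, healthy replicate 1 and 30 min replicate 2, and near or above 1 on the other 4.

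**Figure D2:**
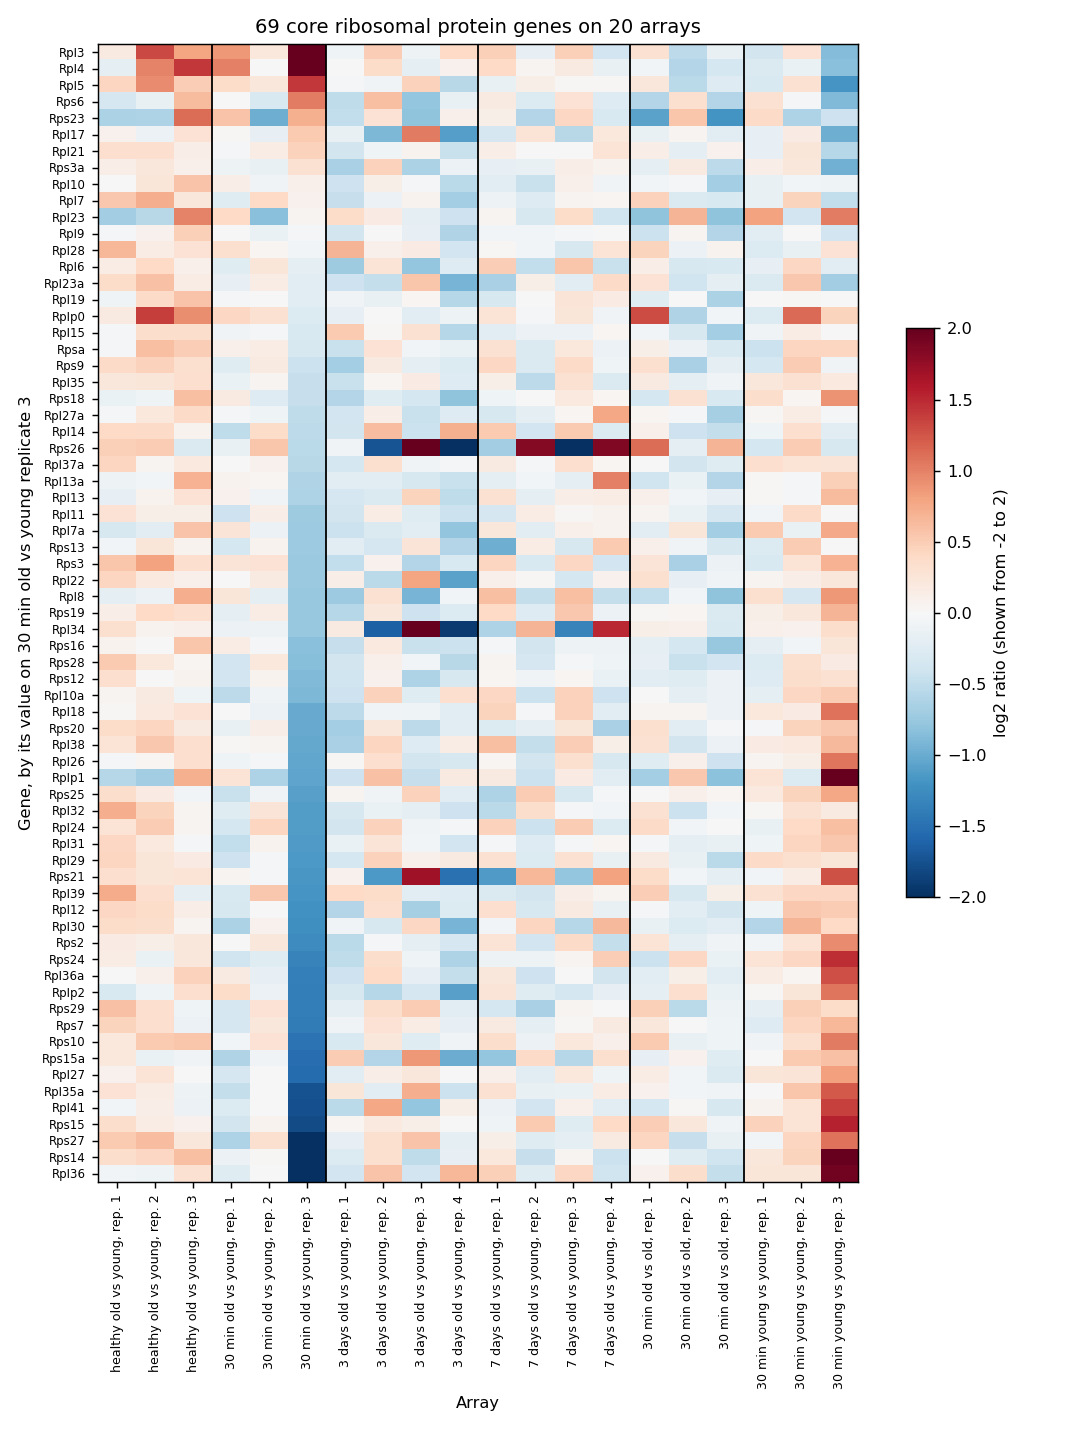
Log2 ratio (colour, red above 0 and blue below) of the 69 proteins of the 60S and 40S subunits (rows, ordered by their value on 30 min old vs young replicate 3) on the 20 arrays (columns); values beyond 2 are drawn at the end colour. The column of 30 min old vs young replicate 3 runs from 2.18 for Rpl3 to -2.34 for Rpl36, and young vs young replicate 3 at the right edge runs the other way.

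Replicate 3 at 30 min stood apart for this family more than for the array as a whole. The SD over the 110 members was 0.82, against 0.50 over all features of that array and against 0.33 and 0.32 over the members on replicates 1 and 2. Of the 69 proteins of both subunits, 29 were below -1 and 4 were above 1 (Rpl3, Rpl4, Rpl5 and Rps6), while 5.86% of all features were beyond 1 in either direction. On replicates 1 and 2, 0 of the 69 were below -1, and only Rpl4 was above 1. Rps6, which had 0.01 and -0.31 on replicates 1 and 2, had 1.03 on replicate 3.

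The young vs young array with the same number gave close to a mirror image. There Rpl36 had 1.92, Rps14 had 2.15, Rps15 had 1.54 and Rpl41, the shortest ribosomal protein, had 1.37, while Rpl5 had -1.18, Rps6 had -0.88, Rpl3 had -0.86 and Rpl4 had -0.84. Across the 69 genes the correlation between the 2 arrays was -0.81, against -0.39 across all features; the genes are not independent replicates, and whether the arrays share an RNA sample is not stated. On that array 15 of the 69 genes were above 1 and 1 was below -1. The numbers in the protein names follow roughly the order of size on a gel, with low numbers for larger proteins. Over 41 numbered 60S proteins, the value and the number in the name had a Spearman correlation of -0.64 on 30 min old vs young replicate 3, 0.51 and 0.47 on young vs young replicates 3 and 1, and -0.46 on healthy replicate 3. On the other 16 arrays it lay between -0.35 and 0.35. Over the 24 numbered 40S proteins it was -0.18 on 30 min old vs young replicate 3 and 0.10 on young vs young replicate 3, and larger on others, with 0.48 on 3 days replicate 3 and -0.47 on 7 days replicate 1. These are descriptions across genes of one array. The pyrimidine run at the start did not separate the genes: on 30 min replicate 3 the median was -0.74 for the 42 genes with a run of 5 or more and -0.76 for the 17 without.

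**Figure D3:**
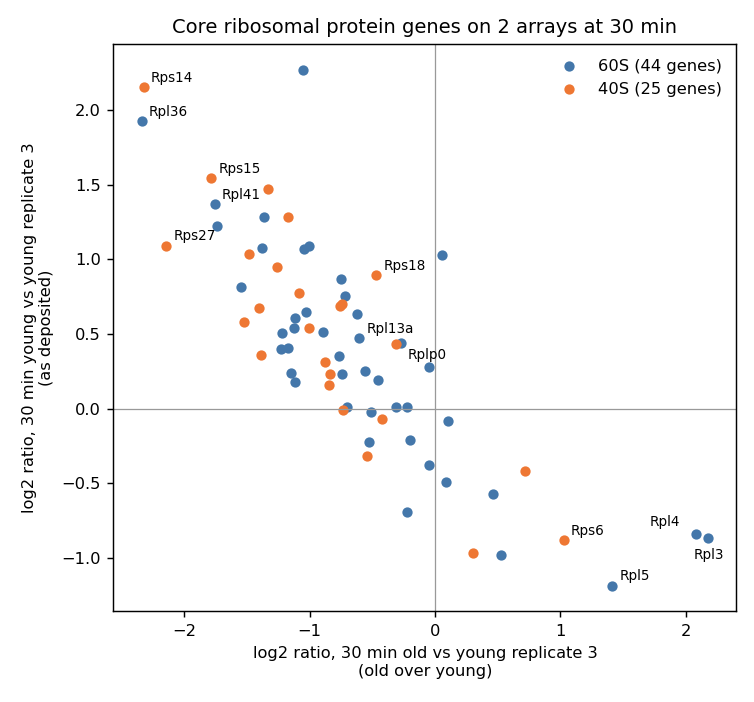
Log2 ratio of 69 ribosomal protein genes on 30 min old vs young replicate 3 (horizontal axis, old over young) against 30 min young vs young replicate 3 (vertical axis, as deposited), with 60S proteins in blue and 40S proteins in orange. The genes fall along a line of negative slope (r = -0.81), with Rpl3, Rpl4 and Rpl5 at the lower right and Rps14 and Rpl36 at the upper left.

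On the arrays within an age, both samples have the same age and labelled time, but whether one was an uninjured control cannot be told from the labels, so injury and the spread between samples cannot be told apart. Within young arteries the family medians were -0.03, 0.30 and 0.40, and 85 of 110 means were above 0 (52.6% of all features). Of the 12 members with an unadjusted p under 0.05 (5.38% of all features), 11 were above 0, against 1.98%, and 1 below, against 3.4%. Without replicate 3 the count was 2 (1.73% of all features), and without replicate 1 it was 21 (6.16%). Rps15 had the smallest p, with 0.46, 0.27 and 1.54 (limma adjusted p = 0.702), followed by Rps24 with 0.27, 0.41 and 1.47. Within old arteries the medians were 0.09, -0.14 and -0.17, with 35 of 110 means above 0 (51.4% of all features). Rpl15, with -0.06, -0.31 and -0.68, was the only member with an unadjusted p under 0.05 (3.4% of all features, 2.28% on the lower side), and 19 members were below 0 on every array (11.4%). Replicates 2 and 3 of young against young samples thus had larger family medians than any of the 3 healthy arrays of old against young samples.

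Between healthy and 30 min arteries the old over young ratio of the family was lower at 30 min. All 3 array medians at 30 min (-0.15, 0.06 and -0.74) lay under those of the healthy arrays (0.27, 0.26 and 0.22). For 23 members all 30 min arrays lay below all healthy arrays, against 3.7% of all features, and for 0 members all lay above, against 3.43%. As a difference within the limma fit, 15 members had an unadjusted p under 0.05, all lower at 30 min (1.36% of all features in either direction and 0.721% on the lower side). Without 30 min replicate 3 none had one (0.799%), nor without both number 3 arrays (0.766%). Without 30 min replicate 2 the count was 43 (4.05%), and without healthy replicate 1 or 2 it was 7 (1.05% and 3.42%). Rpl29, a 60S protein that also binds heparin, had -0.41, -0.02 and -1.15 at 30 min, against 0.43, 0.25 and 0.17 in healthy arteries. Its groups did not overlap (difference -0.84, SE 0.30, limma adjusted p = 0.999987). Rps27 had the largest of the 3 leading differences, -1.17 (SE 0.45), with -0.62, 0.31 and -2.14 at 30 min, against 0.53, 0.61 and 0.23 in healthy arteries, and its groups overlapped on 1 array. Rpl12, at the base of the stalk, had -0.33, 0.00 and -1.22 at 30 min, against 0.42, 0.37 and 0.14 in healthy arteries. Read as deposited, the healthy arrays no longer have one sign, and 51 members were below 0 on every 30 min array (17.1% of all features). In that reading 42 members had an unadjusted p under 0.05 at 30 min, against 5.03% of all features, and 0 passed after adjustment.

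At 3 days the array medians were -0.22, 0.09, -0.04 and -0.27, and 40 of 110 means were above 0, against 52% of all features, with a median of -0.10. Without replicate 4 the median was -0.02, and without replicate 3 it was -0.15. The 60S and 40S proteins lay lower (-0.14 and -0.22) than the pseudogene and copy names (0.10 and 0.08). Of the 110 members, 8 were below 0 on all 4 arrays, against 3.6% of all features, and 2 were above 0 on all 4 (Rps15 and Rpl23al5), against 3.56%. The lower ones were Rps18, Rplp2, Rpl7a, Rpl13a, Rpl18, Rpl32, Rps2 and Rpl17-ps16, so both PCR reference genes of the family were among them. Rps18 had -0.58, -0.25, -0.36 and -0.80, a mean of -0.50 ± 0.25 (SD, n = 4; SE 0.17, limma unadjusted p = 0.0107 and adjusted p = 0.845), or 0.708 of the young level. Rplp2 had -0.32, -0.57, -0.34 and -1.09, and Rpl13a had -0.22, -0.23, -0.33 and -0.45. For these 3 genes the old-Cy5 and old-Cy3 arrays lay on the same side of 0. All 4 members with an unadjusted p under 0.05 (Rps18, Rplp2, Rpl7a and Rpl17-ps16) were on the lower side, against 2.19% of all features. Without replicate 4 the count was 0 (5.95% of all features), without replicate 2 it was 9 (5.52%) and without replicate 3 it was 11 (4.98%). Rpl17-ps16 had the lowest mean, with -0.75, -0.32, -0.99 and -0.68. For 14 members all 3 day arrays lay below all healthy arrays, against 1.98% of all features, and for 0 members all lay above, against 2.19%.

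For most members, as for most features, the old-Cy5 and old-Cy3 means had opposite signs at 3 and at 7 days. Rps26, a 40S protein at the exit channel of the mRNA, had -1.73 and -2.14 on the old-Cy5 arrays at 3 days, and -0.07 and 2.55 on the old-Cy3 arrays. At 7 days it had -0.69 and -2.13 on the old-Cy5 arrays, and 1.84 and 1.85 on the old-Cy3 arrays. Rpl34 had -1.63, -1.92, 0.18 and 2.31 at 3 days and -0.62, -1.33, 0.68 and 1.50 at 7 days, in the same order of dyes. Rps21 had -1.15, -1.50, 0.08 and 1.70 at 3 days and -1.14, -0.77, 0.67 and 0.80 at 7 days. Each old-Cy5 value of these 3 genes was below 0 and each old-Cy3 value above 0, except for the -0.07 of Rps26. Of the 110 members, 41 had old-Cy5 and old-Cy3 means of the same sign at 3 days (29.3% of all features) and 24 at 7 days (34.1%). Across the 69 proteins of both subunits, pairs of 3 and 7 day arrays with the same dye orientation had correlations of 0.35 to 0.91 (12 pairs), and all 16 pairs of opposite orientation had correlations of -0.83 to -0.30. As deposited, all 28 pairs were above 0. Across all features the same pairs had 0.24 to 0.39 and -0.43 to -0.19, and the genes of an array share its labelling and scan.

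**Figure D4:**
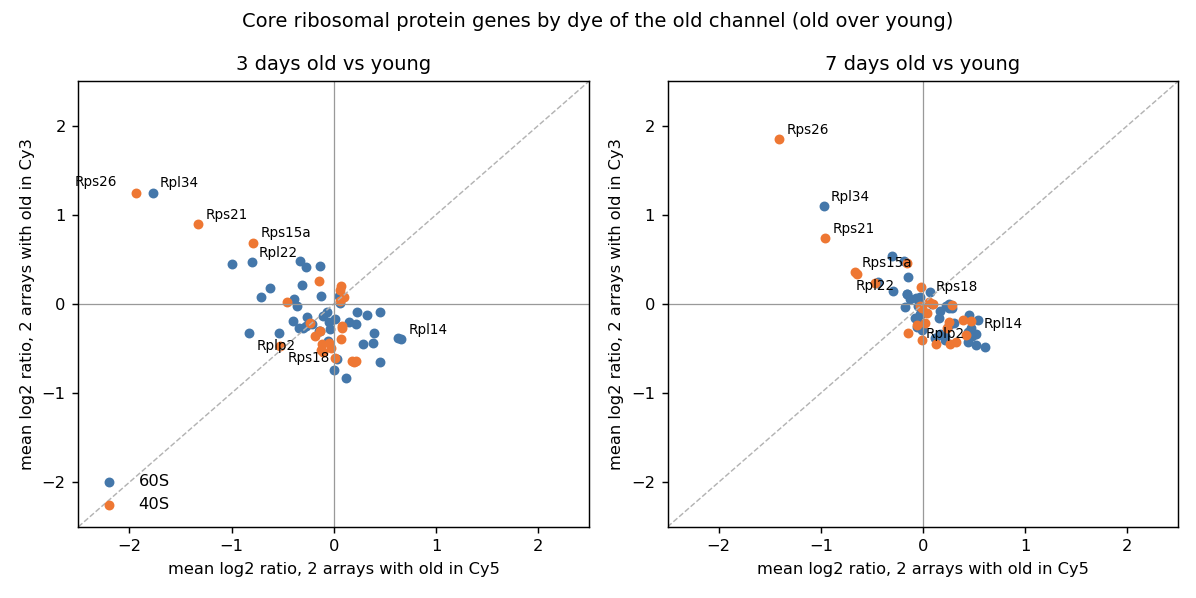
Mean log2 ratio (old over young) of 69 ribosomal protein genes on the 2 old-Cy5 arrays (horizontal axis) and the 2 old-Cy3 arrays (vertical axis), at 3 days (left) and 7 days (right); the dashed line marks equal values. Rps26, Rpl34 and Rps21 lie at the upper left at both times, and Rps18 and Rplp2 lie at the lower left at 3 days.

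If the values are read as deposited, with no turn, 14 members were called at 3 days and 13 at 7 days, with 9 in common. These are 14 and 13 of 110 beside 14.4% and 21.8% of all features called, so the family did not stand out by number. At 3 days 13 of the 14 were below 0, and at 7 days 9 of the 13. Rps26 then had means of -1.59 at 3 days (limma adjusted p = 0.00451) and -1.63 at 7 days (adjusted p = 0.00228). Rpl34 had -1.51 (adjusted p = 0.00108) and -1.03 (adjusted p = 0.00781), and Rps27a-ps1 had -1.61 (adjusted p = 0.000565) and -1.12 (adjusted p = 0.00372). On the higher side stood Rpl14 at both times (0.53 and 0.43) and Rpl6 and Rpl10a at 7 days (0.49 and 0.43). Over the 8 arrays, 23 members had one sign as deposited, 10 above 0 and 13 below, against 19.6% of all features. Whether these values follow the age or the dye cannot be told apart without the direction of the deposited ratio.

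At 7 days the family lay near 0, with array medians of 0.00, -0.13, 0.06 and 0.03 and 53 of 110 means above 0. No member was above 0 on all 4 arrays (4.32% of all features), and Rpl9 and Rps16 were below 0 on all 4 (5.38%). Rps18 had -0.08, 0.00, 0.20 and 0.05, all above its 3 day arrays (difference 0.54, SE 0.25, limma adjusted p = 0.599). It was the only member whose difference between 7 and 3 days had an unadjusted p under 0.05, against 8.07% of all features and 3.58% on the higher side. Between 3 days and 30 min, 9 members had one (3.25%), 6 higher at 3 days (1.67%) and 3 lower (1.59%). The count was 1 without 30 min replicate 3 (2.28% of all features) and 27 without 30 min replicate 2 (4.99%). It was 3 without 3 day replicate 2 (3.58%) and 4 without 3 day replicate 4 (3.37%). Rpl4 had 0.00, 0.37, -0.19 and 0.08 at 3 days, against 1.02, -0.02 and 2.08 at 30 min (difference -0.91, SE 0.40), and its groups overlapped. Rplp0 had 0.27, -0.02, 0.24 and -0.08, and Rps6 had 0.17, -0.27, 0.29 and -0.26, above 0 on the old-Cy5 arrays and below 0 on the old-Cy3 arrays. Rpl13a had -0.18, -0.05 and -0.18 on replicates 1 to 3 and 1.00 on replicate 4. Rpl10a-ps1, a pseudogene name, was the only member with an unadjusted p under 0.05, against 6.25% of all features on the lower side. It had the lowest mean, -0.58 ± 0.51 (SD, n = 4; limma adjusted p = 0.326), with -0.91, -0.70, -0.87 and 0.17. The highest means belonged to Rps13-ps8 (0.56) and Rpl3l (0.47), and Rpl3l had 1.36, 0.13, -0.17 and 0.56 on the 4 arrays.

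Pseudogene and copy names need care, since their probes can bind the mRNA of the parent gene and the deposited values do not separate the copies. Rpl7-ps3 had 0.07, 0.51 and 0.70 in healthy arteries, while its parent Rpl7 had an unadjusted p under 0.05 there too. Rps2-ps36 varied the most of all members between healthy arrays (0.74, 1.55 and -0.86, SD 1.23), where Rps2 varied among the least. It had -1.35 and -1.04 on the old-Cy5 arrays at 3 days and 2.89 and 1.84 on the old-Cy3 arrays, while Rps2 was below 0 on all 4 arrays. This copy and its parent gene therefore did not follow each other. Of the 29 members with several probes, the probe means had one sign in 26 genes in healthy arteries, 25 at 30 min, 15 at 3 days and 18 at 7 days. The 4 probes of Rpl29 spanned 0.24 to 0.32 in healthy arteries and -0.62 to -0.45 at 30 min, and the 3 probes of Rpl5 spanned 0.27 to 0.85 and 0.22 to 0.97.

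Other genes of translation and markers of cell types were set beside the family. None passed an adjusted p of 0.05 in any comparison but 1 erythroid gene, the globin Hbe1, at 7 days. Hbe1 was on the lower side there (mean -1.99), while 5 of the 6 erythroid genes were above 0, with a list median of 0.38. In healthy arteries, elongation factors and other TOP mRNAs had a median of 0.23, with 16 of 17 genes above 0, and 72 mitochondrial ribosomal proteins had 0.10, with 60 above 0. A list of reference genes had 0.24, with all 13 above 0, and smooth muscle markers had 0.47, with 11 of 12 above 0. The cytosolic family thus shared its sign in healthy arteries with reference genes and smooth muscle markers. Fibroblast markers stood at -0.24, with 1 of 11 above 0, erythroid markers at -0.46, with 0 of 6, and skeletal muscle markers at -0.41, with 1 of 11. The part of cell content in the family's value was not tested. At 30 min the 60S and 40S proteins had -0.21 and -0.34, while elongation and TOP factors had 0.07, initiation factors 0.12, ribosome biogenesis factors 0.11 and reference genes 0.16. Other lists lay below 0 with the family: erythroid markers had -0.26 (0 of 6 above 0), fibroblast markers -0.25 (4 of 11) and skeletal muscle markers -0.19 (3 of 11). Neutrophil markers had -0.13 (2 of 11), lymphocyte markers -0.10 (4 of 14), endothelial markers -0.10 (2 of 13) and mitochondrial ribosomal proteins -0.07 (25 of 72). Macrophage markers (0.18), smooth muscle markers (0.10) and adipocyte markers (0.07) lay above 0. The part of these lists in the family's value was not tested. Gapdh, a glycolytic enzyme of the reference list, had -0.34, -0.25 and -0.52 at 30 min, against 0.41, 0.51 and 0.23 in healthy arteries, groups that did not overlap. Its mean at 30 min, -0.37, was the lowest of the 13 reference genes, of which 10 were above 0. At 7 days, 67 of 73 genes that build ribosomes in the nucleolus were above 0 (median 0.19), against 51.1% of all features, and 6 had an unadjusted p under 0.05, all higher, against 5.28%, while the ribosomal proteins themselves had a median of -0.02.

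**Figure D5:**
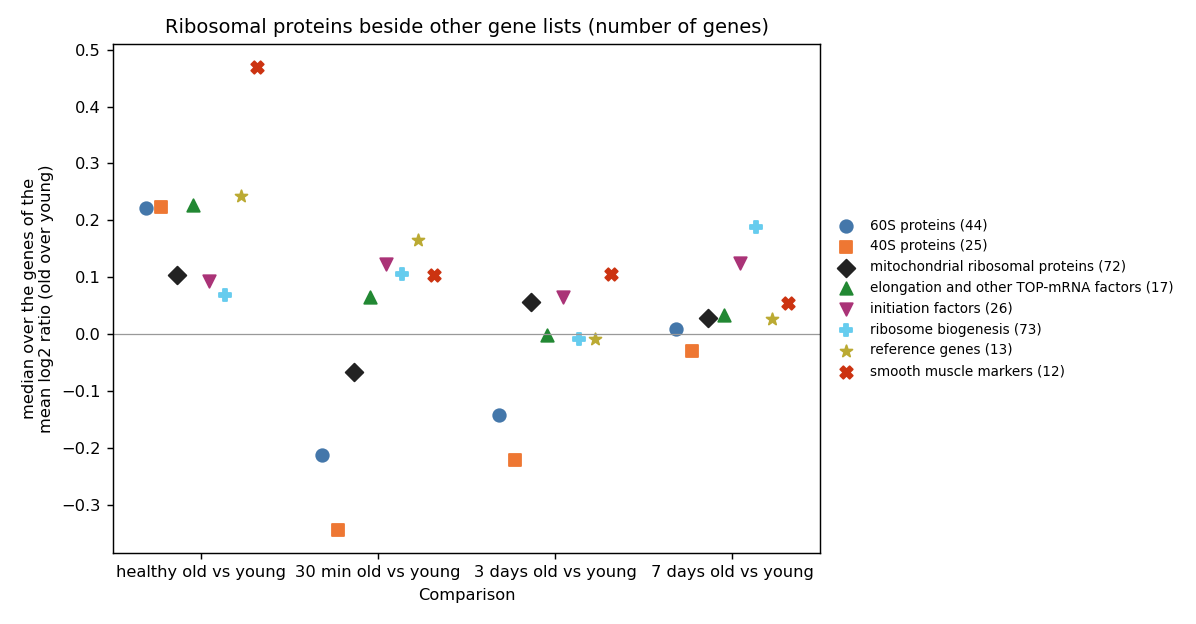
Median over the genes of each list of the mean log2 ratio (old over young, vertical axis) in the 4 comparisons of old with young arteries (horizontal axis), with the number of genes in the legend. In healthy arteries the 60S and 40S proteins stand at 0.22, near elongation and TOP factors (0.23) and reference genes (0.24), and at 30 min they are the lowest of the 8 lists drawn (-0.21 and -0.34).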

How the data were processed

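Per the labels and the study's methods, total RNA was labelled by oligo-dT primed reverse transcription with aminoallyl dUTP and dye coupling, and the authors scanned the Agilent rat arrays with GenePix and normalized them by Lowess in Acuity. The authors name GeneSpring with RMA for comparing groups; which step made the deposited log2 ratios is not stated, and neither is the channel on top. Of 41010 probes, 21394 had 1 gene symbol in the platform table, and 1 line lacking a probe name was dropped. Probes of a symbol were averaged. The sign was turned on the 7 old vs young arrays whose old sample was in Cy3.

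All 20 arrays entered 1 limma fit (limma 3.58.1, R 4.3.3) with 6 coefficients for the groups and 1 for the dye of channel 1, on 36037 features, with 13 residual and 4.27 prior degrees of freedom and Benjamini-Hochberg adjustment over all features. Means and medians are over arrays, without the dye term, while fitted values and limma p-values include it. The term follows the dye of channel 1 also on the arrays within an age, which were not turned. If the deposited ratio is Cy5 over Cy3, its sign is wrong on those of them with channel 1 in Cy3. The fit was tested on simulated data. Genes were named as the 3 members with the smallest p of each comparison or difference, the 2 highest and 2 lowest means of each comparison of old with young arteries, and a set list (Rplp0, Rplp1, Rplp2, Rpsa, Rps6, Rpl5, Rpl11, Rpl13a and Rps18); Rps26, Rpl34, Rps21, Rps23, Rpl23, Rps14 and the others named outside this rule were chosen after their values were seen. The members and lists were chosen with earlier results of these data known. Alternatives changed the sign turn, the dye term, the arrays in the fit, the collapse of probes and the scaling. The number of arrays limits the precision. From the authors' own comparisons only the directions of their gene lists were used, to see which reading of the sign they follow. No value was taken from them. Some ribosomal protein genes are not reported here.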

Additional observations from a re-analysis of the deposited data

Results flagged for a closer look

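In Rpl13a at 7 days, replicate 4 had 1.00, while the other 3 arrays lay between -0.18 and -0.05, so that this array was far from the rest. The 9 genes of the set list were looked at in this way at 3 and 7 days and in 27 sets of 4 arrays in all, and chance marks about 1 set in 20.

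The old over young ratio of Rpl29 was below 0 on all 3 arrays at 30 min and above 0 on all 3 healthy arrays, with a difference of -0.84 between the times (SE 0.30). The difference itself did not pass in the limma fit (adjusted p = 0.999987).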

How the results depend on the processing

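The count of members called at an adjusted p of 0.05 stayed at 0 in all comparisons and differences under the other settings run (no dye term, array weights, centring, equal spread, median probe, single probes, features with a symbol only, the arrays of a comparison alone, shared values as missing, the replicate block, the t-test against 0 after adjustment, and any 1 array left out), except where the sign turn was dropped. As deposited it was 14 at 3 days (14.4% of all features), 13 at 7 days (21.8%) and 2 for 3 days minus 30 min. With only 3 and 7 days as deposited (chosen after seeing the data) it was 14, 12 and 1. The share of all features was not counted for that difference or for the second setting. In both settings, the family median at 7 days was 0.0818, Rpl17-ps16 had 0.18, Rps2-ps36 -1.78 and Rpl17-ps17 -0.87 at 3 days. Rps2-ps37 had 0.88 at 7 days and Rpl10-ps13 0.17 for 7 minus 3 days in both. As deposited throughout, the healthy family median was -0.061 and healthy Rpl7-ps3 had -0.0553. With arrays within an age turned, Rpl15 had 0.10, Rps16 0.18 and Rpl19-ps25 0.32 (old vs old) and Rps12l4 -0.33 (young vs young). The healthy median was 0.32 with all arrays at the same spread, 0.20 with the replicate block and 0.23 to 0.27 with 1 array left out; Rpl3l in healthy arteries had 0.077 with array weights. With 1 array left out, Rplp1 in healthy arteries ranged from -0.63 (without replicate 3) to 0.49 (without replicate 2), Rps2-ps37 at 7 days from -0.998 (without replicate 3) to 0.25 (without replicate 4), and the family median at 30 min from -0.44 (without replicate 2) to -0.02 (without replicate 3), and at 3 days from -0.15 (without replicate 3) to -0.02 (without replicate 4). With 1 array left out, the number of members with an unadjusted p under 0.05 ranged from 0 to 3 at 7 days (9.56% to 14.4% of all features). It ranged from 0 to 4 in old vs old (1.34% to 5.25%) and for 7 minus 3 days (7.36% to 11.2%). The cause of these changes was not tested.

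Whether the replicate numbers pair the arrays was not settled. Same-numbered arrays of different groups had a median correlation of -0.04 over 46 pairs, against 0.00 over 120 pairs of different numbers. The lowest was -0.45 in both sets, and the highest was 0.28 for the same number and 0.44 for different numbers. Of 20 arrays, 0 correlated best with its own number. A sample shared on opposite sides of the ratio would give a negative correlation, which the median and the best match can miss. The block changed no call of a member. With 3 or 4 arrays a group, a standard error of 0.14 to 0.59 on the log2 scale limits what could be called for a single gene.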
